A study of Mus musculus with 9 samples.

Results

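The 8 transcripts followed here mark mouse plasmacytoid dendritic cells (pDCs) and were examined through 3 populations of dendritic cell (DC) progenitors from bone marrow: Siglech, Ly6d, Pacsin1, Cox6a2, Smim5, Ly6c2, Cd300c and Klk1. A gene was read from a probe set that carried its symbol and no other. This left 6 of the 8 genes, out of 19938 genes with such a probe set, and each of the 6 had 1 probe set of this kind. Ly6c2 had only 2 probe sets that also named its close relative Ly6c1, and Klk1 had no probe set of its own, so neither is analysed here.

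The populations were pre-CD8 DCs, the precursors of the CD8 (cDC1) lineage, and common DC progenitors (CDPs) split into Zbtb46-pos and Zbtb46-neg cells, with 3 arrays for each. All 9 arrays came from mice heterozygous for a Zbtb46-GFP reporter, a green fluorescent protein allele that reports transcription of Zbtb46, a factor of classical DCs. Every population carried this allele, and no treatment is named. Cells were sorted from pelvis, tibia and femur marrow, and RNA in picogram to nanogram amounts was labelled for Affymetrix whole-transcript arrays. Age, sex, sort gates and the source of each replicate are not stated in the labels, so the p-values measure the spread between these arrays, which may be technical. Values are log2 of the deposited RMA signal. A gene counts as changed at an adjusted p under 0.05 in limma, with Benjamini-Hochberg adjustment over all 19938 genes.

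Zbtb46 and the cDC1 markers followed the labels. Zbtb46 itself was 0.71 higher in Zbtb46-pos than in Zbtb46-neg CDPs (adjusted p = 0.0261). Of the 9 cDC1 markers, 6 were higher and 0 were lower in pre-CD8 DCs than in Zbtb46-pos CDPs (0 lower at an unadjusted limma p under 0.05 too). Over all genes 4.76% were higher and 1.86% lower in that comparison. The 6 common DC progenitor markers went both ways there, with 2 higher and 3 lower. In Zbtb46-pos against Zbtb46-neg CDPs 1 of them was higher and 4 were lower, beside 3.85% and 10.6% of all genes. The CDP label itself was not tested. Array medians were 110.2 to 118.0 signal units. A log2 signal below the table median of 6.82 was treated as dim, since such a level was not shown to lie above background, and a difference to or from it may understate the change in transcript. By this rule Zbtb46 was dim in Zbtb46-neg replicates 1 and 3. Both replicate 1 arrays of the CDP populations stood apart by low Xist, the transcript of the inactive X chromosome, with 5.30 in the Zbtb46-pos array and 5.59 in the Zbtb46-neg array, against 11.85 to 12.29 in the other 7 arrays. The 6 genes' differences from Zbtb46-neg CDPs are given with and without the Zbtb46-neg array. Leaving out the Zbtb46-pos array changed no call among the 6 genes.

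pDCs are the DC type specialised in making type I interferon. They sense viral RNA and DNA in endosomes through Toll-like receptors, and their identity depends on the E protein Tcf4 (E2-2), which binds E-box letters in DNA and is opposed by the inhibitor Id2. They can arise from common DC progenitors as well as from lymphoid progenitors, and part of their signature is shared with B cell precursors. The genes followed here are surface receptors (Siglech, Cd300c, Ly6d, Ly6c2), an endocytic adaptor (Pacsin1), a mitochondrial subunit (Cox6a2), a small membrane protein (Smim5) and a serine protease (Klk1).

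Promoter windows of 250 bases upstream of the annotated start were available for 3 of the 6 measured genes (RefSeq, GRCm38.p6), and those of both surface receptors of the immunoglobulin superfamily are shown because they hold the E-box form CACCTG. The capitals mark this motif. The Siglech window is chr7:55767934-55768183 on the plus strand and reaches into the gene span given below, and the Cd300c window is chr11:114960508-114960757 on the minus strand.
Siglech: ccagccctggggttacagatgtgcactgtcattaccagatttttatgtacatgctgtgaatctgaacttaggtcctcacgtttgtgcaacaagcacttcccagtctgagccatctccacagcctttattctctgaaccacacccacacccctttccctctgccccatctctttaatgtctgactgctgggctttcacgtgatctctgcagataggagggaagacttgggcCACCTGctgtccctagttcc
Cd300c: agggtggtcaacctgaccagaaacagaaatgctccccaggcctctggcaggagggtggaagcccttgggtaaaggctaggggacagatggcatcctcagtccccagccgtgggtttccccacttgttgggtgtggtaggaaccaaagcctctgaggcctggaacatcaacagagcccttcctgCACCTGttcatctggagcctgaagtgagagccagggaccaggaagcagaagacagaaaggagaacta
This motif (CAGGTG on the other strand) lay once in each window, at bases -20 to -15 before the start used for the Siglech window and at -67 to -62 before that of Cd300c. The Siglech match (chr7:55768164-55768169) lies inside the gene span, 10 bases past its first base, and the Cd300c match (chr11:114960569-114960574) lies outside the span. Of all 32851 RefSeq windows of this length, 17.2% hold the motif. The looser E-box CANNTG, of which CACCTG is one form, occurred 3 times for Siglech and 4 times for Cd300c, and at least once in 66.2% of all windows. The Pacsin1 window (chr17:27684989-27685238, plus strand), which lies within the annotated gene, held neither form. The E-box CAGCTG, found in 13% of all windows, occurred in none of the 3. The same held, on both strands, for the Ets-type letters GAGGAA, found in 23.3% of all windows. A match is a description of letters and says nothing about binding.

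Siglech encodes Siglec-H, a sialic acid-binding family receptor of mouse pDCs that is also found on DC precursors (probe set 10553559; chr7:55768154-55779448, GRCm38.p6). Its log2 signal was 8.42, 7.999 and 7.80 in Zbtb46-neg CDPs, 7.80, 7.80 and 7.98 in Zbtb46-pos CDPs, and 7.26, 7.49 and 7.23 in pre-CD8 DCs. Every pre-CD8 DC array lay below all 6 CDP arrays, whereas the CDP populations overlapped. Siglech was 0.75 lower in pre-CD8 DCs than in Zbtb46-neg CDPs (SE 0.15, adjusted p = 0.00844), a level 0.596 times as high. This fall was called with any single array left out, and without Zbtb46-neg replicate 1 it was -0.57 (adjusted p = 0.0120). Against Zbtb46-pos CDPs the difference was -0.53 (SE 0.15), which missed the threshold at an adjusted p of 0.0736. It passed without Zbtb46-neg replicate 1 (adjusted p = 0.0189), an array that enters this comparison only through the shared estimate of spread. Between the CDP populations Siglech differed by -0.21 (95% interval -0.55 to 0.13, adjusted p = 0.375), and by -0.04 without Zbtb46-neg replicate 1.

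Cd300c encodes an immunoglobulin-superfamily receptor of the CD300 cluster (probe set 10392803; chr11:114956105-114960507). It read 9.84, 9.47 and 9.40 in Zbtb46-neg CDPs, 9.31, 9.26 and 9.44 in Zbtb46-pos CDPs, and 9.45, 9.50 and 9.37 in pre-CD8 DCs. Apart from the high Zbtb46-neg replicate 1, all arrays lay within a narrow range, and each pair of populations overlapped. No comparison passed. The differences were -0.23 (95% interval -0.49 to 0.03, adjusted p = 0.224) for Zbtb46-pos against Zbtb46-neg CDPs, 0.10 (-0.16 to 0.37, adjusted p = 0.679) for pre-CD8 DCs against Zbtb46-pos CDPs, and -0.13 (-0.39 to 0.14, adjusted p = 0.638) for pre-CD8 DCs against Zbtb46-neg CDPs. Without Zbtb46-neg replicate 1 the first value was -0.095 (adjusted p = 0.581) and the last was 0.0082 (0.995).

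Ly6d encodes a lipid-anchored Ly6 protein that marks lymphoid progenitors able to give B cells and pDCs (probe set 10429520; chr15:74762056-74763567). One array alone was high: the signal was 7.96, 6.98 and 6.91 in Zbtb46-neg CDPs, 6.88, 6.97 and 7.02 in Zbtb46-pos CDPs, and 6.97, 6.95 and 6.83 in pre-CD8 DCs. The other 8 arrays lay near the table median. Zbtb46-pos CDPs averaged 6.96 ± 0.07 and Zbtb46-neg CDPs 7.29 ± 0.59 (SD, n = 3 each), a difference of -0.33 (95% interval -0.86 to 0.21, adjusted p = 0.386), and it was 0.01 without the high array. For pre-CD8 DCs against Zbtb46-neg CDPs the difference was -0.37 (adjusted p = 0.437), and -0.03 without that array. For pre-CD8 DCs against Zbtb46-pos CDPs it was -0.04 (adjusted p = 0.946).

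Pacsin1 encodes an adaptor that binds dynamin and membrane, abundant in neurons and used by pDCs for interferon output (probe set 10443201; chr17:27655591-27711118). It was dim in all 9 arrays: 6.50, 6.46 and 6.47 in Zbtb46-neg CDPs, 6.67, 6.47 and 6.33 in Zbtb46-pos CDPs, and 6.54, 6.47 and 6.38 in pre-CD8 DCs. Differences between populations were at most 0.03 in size with adjusted p of 0.897 to 0.958, and the 95% intervals lay within -0.24 and 0.22. The differences from Zbtb46-neg CDPs were 0.024 for Zbtb46-pos CDPs and -0.0043 for pre-CD8 DCs without Zbtb46-neg replicate 1.

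Cox6a2, the heart and muscle isoform of a cytochrome c oxidase subunit that pDCs also transcribe (probe set 10568369; chr7:128205435-128206366), was lowest in pre-CD8 DCs. Its values were 8.22, 7.77 and 7.71 in Zbtb46-neg CDPs, 7.60, 7.59 and 7.53 in Zbtb46-pos CDPs, and 7.38, 7.53 and 7.32 in pre-CD8 DCs. No 2 populations overlapped, though the lowest Zbtb46-pos array and the highest pre-CD8 DC array both rounded to 7.53. Only the whole span passed: Cox6a2 was 0.49 lower in pre-CD8 DCs than in Zbtb46-neg CDPs (SE 0.13, adjusted p = 0.0297), a level 0.710 times as high. The call was lost without pre-CD8 DC replicate 1 (adjusted p = 0.0993) or replicate 3 (0.114), and in a fit of these populations alone (0.0556). It held without Zbtb46-neg replicate 1, at -0.34 (adjusted p = 0.0360). The steps between were -0.33 for Zbtb46-pos against Zbtb46-neg CDPs (adjusted p = 0.129, and -0.168 with 0.297 without Zbtb46-neg replicate 1) and -0.17 for pre-CD8 DCs against Zbtb46-pos CDPs (adjusted p = 0.535).

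Smim5, which encodes a small integral membrane protein whose function is not well known (probe set 10382692; chr11:115897806-115906269), was highest in the middle population. It read 7.28, 6.90 and 6.93 in Zbtb46-neg CDPs, 8.18, 7.92 and 8.22 in Zbtb46-pos CDPs, and 7.40, 7.66 and 7.44 in pre-CD8 DCs. No 2 populations overlapped. Smim5 was 1.07 higher in Zbtb46-pos than in Zbtb46-neg CDPs (SE 0.13, adjusted p = 0.000858), or 2.10-fold, and this call held in every alternative run, with 1.19 without Zbtb46-neg replicate 1. In pre-CD8 DCs it was 0.60 lower than in Zbtb46-pos CDPs (SE 0.13, adjusted p = 0.0251). That call was lost without Zbtb46-pos replicate 3 (0.0781), pre-CD8 DC replicate 1 (0.103) or pre-CD8 DC replicate 3 (0.102). In pre-CD8 DCs it stayed 0.46 above Zbtb46-neg CDPs (SE 0.13, adjusted p = 0.0402). It was 0.58 (adjusted p = 0.0149) without Zbtb46-neg replicate 1. With the replicate number as a block the adjusted p was 0.0541, and 6 of 9 single-array omissions ended the call, with adjusted p up to 0.144 (without Zbtb46-neg replicate 3 or pre-CD8 DC replicate 2), 0.136 without Zbtb46-neg replicate 2, and 0.0510, 0.0702 and 0.0894 without Zbtb46-pos replicate 3, pre-CD8 DC replicate 1 and pre-CD8 DC replicate 3.

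**Figure D1:**
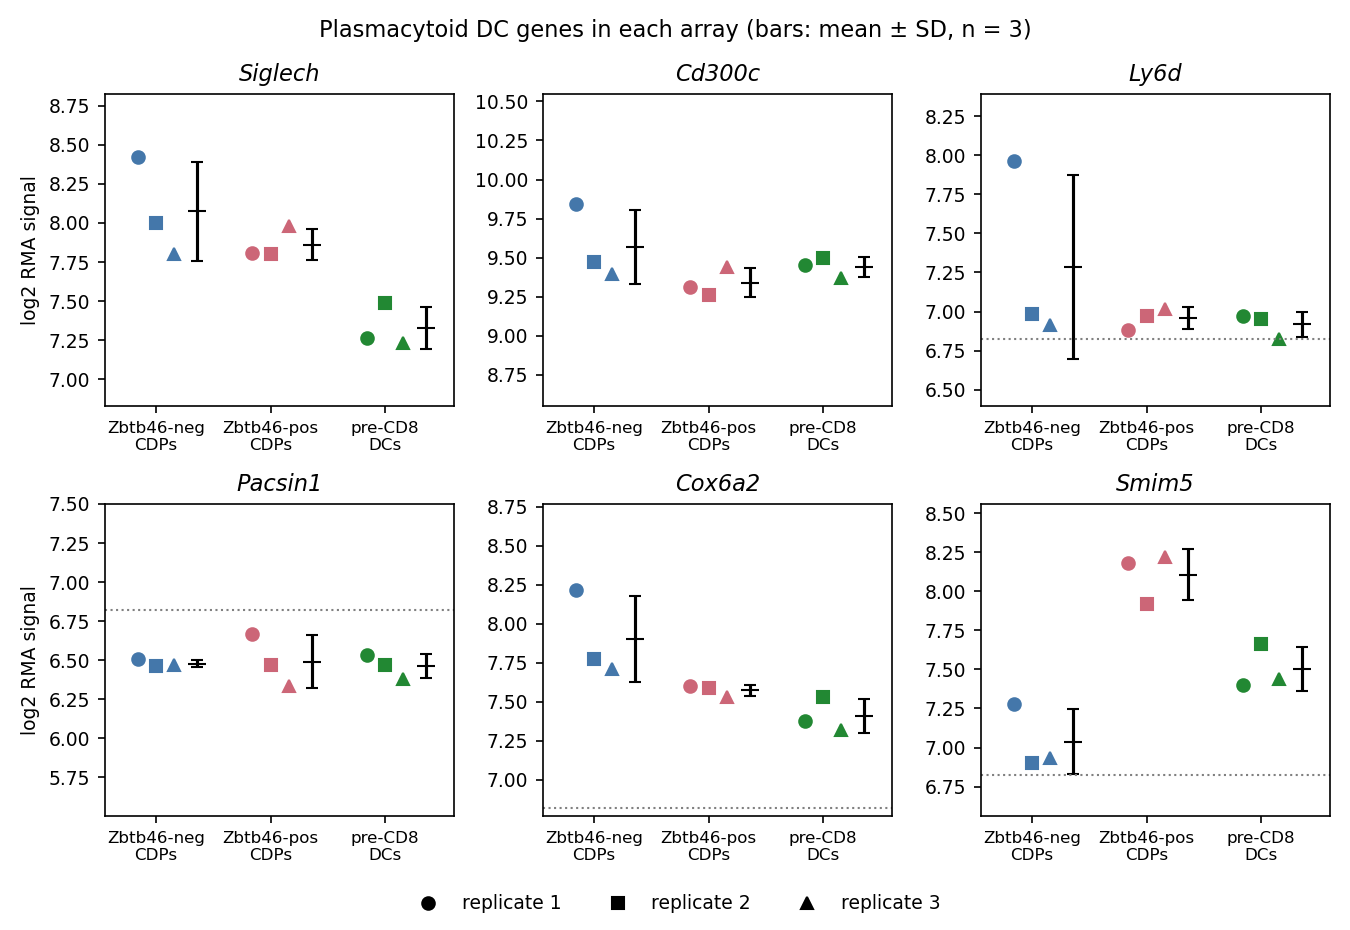
Log2 RMA signal of the 6 measured pDC genes in each array (y axis, a scale of its own for each gene) for the Zbtb46-neg CDPs, the Zbtb46-pos CDPs and the pre-CD8 DCs (x axis). Point shapes give the replicate number, bars the mean ± SD (n = 3) and the dotted line the table median of 6.82. Siglech and Cox6a2 were lowest in pre-CD8 DCs, Smim5 was highest in Zbtb46-pos CDPs, and Ly6d was high in 1 array only.

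Counted together, 1 of the 6 genes rose and 0 fell in Zbtb46-pos against Zbtb46-neg CDPs, where 14.4% of all genes changed, 3.85% upward and 10.6% downward. In pre-CD8 DCs against Zbtb46-pos CDPs 0 rose and 1 fell, where 6.62% of all genes changed, 4.76% upward and 1.86% downward. In pre-CD8 DCs against Zbtb46-neg CDPs 1 rose and 2 fell, where 15.7% of all genes changed, 6.43% upward and 9.23% downward. At an unadjusted limma p under 0.05, 1 of the 6 was lower in Zbtb46-pos than in Zbtb46-neg CDPs (Cox6a2), and 0 were higher in pre-CD8 DCs than in Zbtb46-pos CDPs. Counts of this size over 6 genes are not a result about the set. The F test across the 3 populations called Smim5 (adjusted p = 0.00126) and Siglech (0.0166), with Cox6a2 at 0.0571, and it called 19.1% of all genes. The up and down shares depend on scaling: quantile normalization gave 1216 genes higher and 1572 lower in Zbtb46-pos against Zbtb46-neg CDPs, in place of 768 and 2105, and 749 higher and 654 lower in pre-CD8 DCs against Zbtb46-pos CDPs, in place of 949 and 370.

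The median difference of the 6 genes was -0.22, -0.10 and -0.25 in these comparisons, beside 0.04, -0.03 and 0.01 over all genes. Without Zbtb46-neg replicate 1 the first and the last median were -0.0138 and -0.017, beside 0.03 and -0.0051 over all genes. Without Zbtb46-neg replicate 3 they were -0.333 and -0.385, and without pre-CD8 DC replicate 3 the middle one was -0.0584. A difference below 0 was found for 4, 5 and 5 of the 6 genes, beside 8465, 11702 and 9598 of the 19938 genes. These counts were 3, 5 and 4 of the 6 genes without Zbtb46-neg replicate 1, and without pre-CD8 DC replicate 3 they were 4, 3 and 4. Groups that did not overlap were counted too. In Zbtb46-pos against Zbtb46-neg CDPs 1 gene was higher and 1 lower in this sense, against 11.8% and 17.4% of all genes (29.3% in either direction). In pre-CD8 DCs against Zbtb46-pos CDPs 0 were higher and 3 lower, against 12.6% and 10.3% (22.9% in either direction). In pre-CD8 DCs against Zbtb46-neg CDPs 1 was higher and 2 lower, against 14.4% and 19.2% (33.7% in either direction). In these sorted populations, fewer cells with a transcript and less transcript per cell cannot be told apart.

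**Figure D2:**
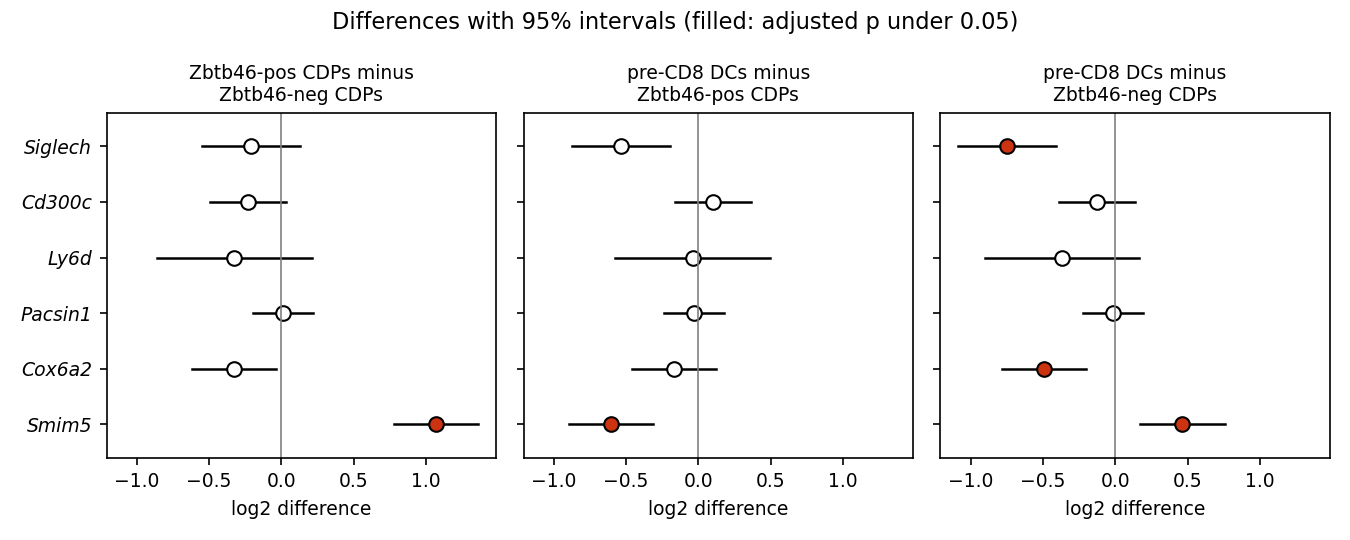
Log2 differences of the 6 pDC genes (x axis) with 95% intervals for Zbtb46-pos minus Zbtb46-neg CDPs, pre-CD8 DCs minus Zbtb46-pos CDPs and pre-CD8 DCs minus Zbtb46-neg CDPs. Filled points have an adjusted p under 0.05: Smim5 in all 3 comparisons, and Siglech and Cox6a2 in the last.

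Zbtb46-neg replicate 1 carried more signal for most of the set. Relative to the mean of replicates 2 and 3 it was 1.02 higher for Ly6d, 0.52 for Siglech, 0.48 for Cox6a2, 0.41 for Cd300c, 0.36 for Smim5 and 0.04 for Pacsin1. Only 0.14% of all genes were raised as much as Ly6d in that array, 2.59% as much as Siglech and 3.54% as much as Cox6a2. The median over the 6 genes was 0.44, against 0.02 over all genes. No such shift was seen in the replicate 1 array of Zbtb46-pos CDPs (median 0.0024) or of pre-CD8 DCs (-0.01).

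Some transcripts of early lymphoid cells were also high in that array. Dntt, the template-independent DNA polymerase of antigen receptor assembly, read 9.24 there, against 7.18 and 7.26 in the other Zbtb46-neg arrays. The interleukin-7 receptor gene Il7r exceeded its companions by 0.95 and the recombinase gene Rag1 by 0.58, both dim in all 9 arrays. The B cell adaptor gene Blnk, which is not on the marker list, exceeded its companions by 0.66. Of the 9 measured genes among 10 listed B cell and early lymphoid markers, 6 were highest among the Zbtb46-neg arrays in replicate 1, with a median excess of 0.19 over the list, while Igll1 (-0.18), Pax5 (-0.11) and Cd79a (-0.03) were not. The summed signal of the 9 markers was 1738 in Zbtb46-neg replicate 1 and 1103 and 1128 in the others, with 823 to 893 in Zbtb46-pos CDPs and 770 to 771 in pre-CD8 DCs. Most of the excess was Dntt, with 603.3 signal units in Zbtb46-neg replicate 1 and 144.6 and 152.9 in the others. The sum without Dntt was 1135 there, against 958.7 and 975.5. Of the B cell genes, Cd79a (4.77 to 5.16), Pax5 (6.33 to 6.52) and Ebf1 (4.96 to 5.21) were dim in all 9 arrays, whereas Cd79b was bright in all 9 (8.11 to 9.14) and read 9.14 in Zbtb46-neg replicate 1, against 8.77 and 8.94 in the others. The 10 granulocyte markers had a median excess of 2.05 in the same array, the largest being 4.21 for Ngp and 3.64 for S100a8. Mpo (13.63, against 13.66 and 13.59), Prtn3 (12.96, against 12.95 and 12.99) and Ctsg (11.70, against 11.72 and 11.83) were not highest there. The other listed markers were. Summed signal of the 10 markers ran from 27162 to 31789 in Zbtb46-neg CDPs, 7718 to 32004 in Zbtb46-pos CDPs and 979.7 to 1988 in pre-CD8 DCs. In Zbtb46-neg CDPs most of it was Mpo and Prtn3, with mean signals of 12647 and 8012, against 533.0 for Ngp and 361.2 for S100a8. Ngp and S100a8 were high in Zbtb46-pos replicate 1 as well, where the median shift of the pDC genes was 0.0024. The part of these transcripts, or of the difference in Xist, in the pDC gene values was not tested.

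**Figure D3:**
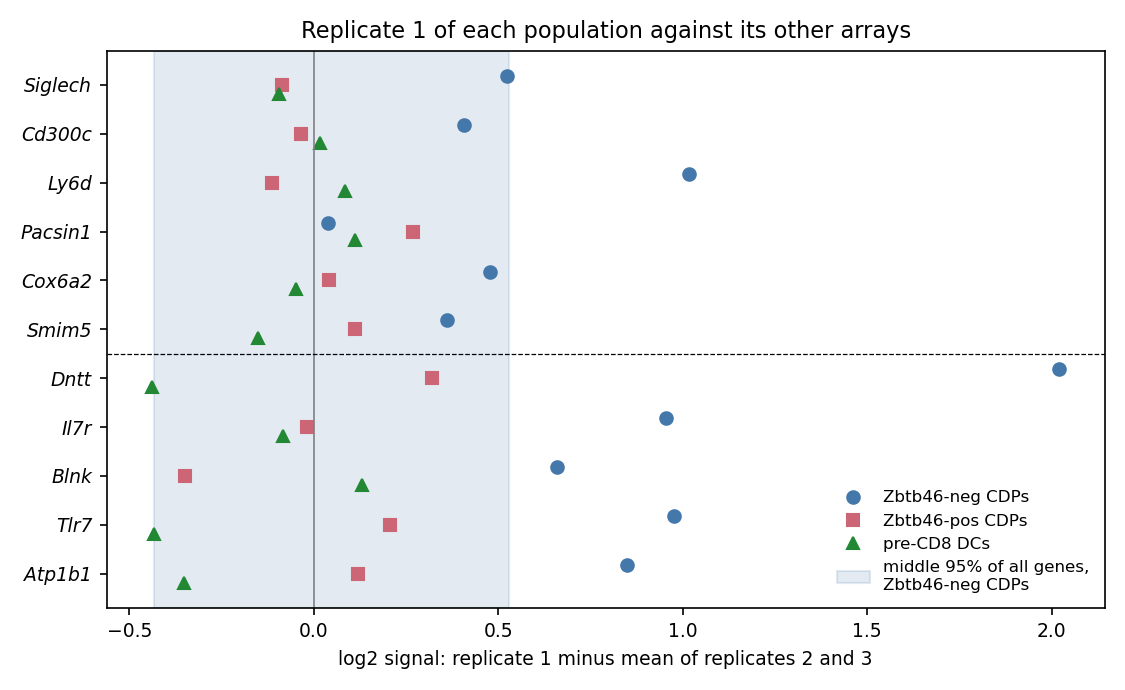
Log2 signal of replicate 1 minus the mean of replicates 2 and 3 in each population (x axis) for the 6 pDC genes (above the dashed line) and 5 further genes (below it). The shaded band holds the middle 95% of all genes in Zbtb46-neg CDPs (-0.43 to 0.53). Ly6d lies beyond the band in Zbtb46-neg CDPs, as do Dntt, Il7r, Blnk, Tlr7 and Atp1b1. These 5 were picked by hand, and lymphoid markers that were not raised in that array (Igll1, Pax5 and Cd79a) are not shown.

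Among the regulators of pDC fate, Id2 rose and Zeb2 fell at both steps. Id2, the antagonist of E proteins, read 10.39, 10.37 and 10.50 in Zbtb46-pos CDPs. In Zbtb46-neg CDPs it read 6.97, 6.17 and 6.54, of which 6.17 and 6.54 are dim. The difference was 3.86 (SE 0.17, adjusted p = 5.04e-06), and Id2 was a further 1.23 higher in pre-CD8 DCs (adjusted p = 0.00347). Zeb2, a repressor needed for pDC development, fell by 1.83 in Zbtb46-pos against Zbtb46-neg CDPs (adjusted p = 5.04e-06) and by 1.38 in pre-CD8 DCs against Zbtb46-pos CDPs (adjusted p = 2.1e-05). Neither gene's populations overlapped.

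Tcf4 changed less. It read 9.37, 9.60 and 9.39 in pre-CD8 DCs, against 10.36, 10.07 and 9.98 in Zbtb46-neg CDPs, and it fell by 0.69 between them (SE 0.15, adjusted p = 0.0111, and 0.05003 without pre-CD8 DC replicate 3, which ended the call). In Zbtb46-pos CDPs, at 9.96, 9.55 and 9.48, it differed from Zbtb46-neg CDPs by -0.48 (adjusted p = 0.0604). That difference passed with the replicate block (0.0369) and without Zbtb46-pos replicate 1 (-0.62, 0.00721). Spib, an Ets factor of pDCs, stayed dim and was not called (5.87 to 6.001 in Zbtb46-neg CDPs, 5.79 to 6.76 in Zbtb46-pos CDPs and 6.08 to 6.28 in pre-CD8 DCs).

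Over the 19 measured regulators of 20 listed, 3 rose and 3 fell in Zbtb46-pos against Zbtb46-neg CDPs, with a median of 0.02. With the replicate block, 10 of the 19 were called there in place of 6. In pre-CD8 DCs against Zbtb46-pos CDPs 2 rose and 4 fell (median -0.08), and against Zbtb46-neg CDPs 4 rose and 7 fell (median -0.12). Shares called were 31.6%, 31.6% and 57.9% in these 3 comparisons, beside 14.4%, 6.62% and 15.7% of all genes. Besides Id2, the interferon regulator Irf7 rose at both steps, by 1.24 and 1.95 (adjusted p = 0.000195 and 1.65e-05). The progenitor factor Myb fell at both, by 1.05 and 1.08 (adjusted p = 3.28e-05 and 3.17e-05). Nfil3, a factor of DC and innate lymphoid development, fell by 1.33 in pre-CD8 DCs against Zbtb46-pos CDPs (adjusted p = 0.00236). The corepressor gene Cbfa2t3 was 1.49 higher in Zbtb46-pos than in Zbtb46-neg CDPs (adjusted p = 0.0136), and this missed the threshold without Zbtb46-neg replicate 3 (0.0538). It read 10.99, 9.63 and 9.63 in Zbtb46-pos CDPs, against 8.76, 8.52 and 8.49 in Zbtb46-neg CDPs. The high Zbtb46-pos array, replicate 1, is low in Xist and enlarges the difference.

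Among 17 measured surface receptors of 20 listed, 3 rose and 6 fell in Zbtb46-pos against Zbtb46-neg CDPs (median 0.07), and 6 rose and 1 fell in pre-CD8 DCs against Zbtb46-pos CDPs (median 0.25). Against Zbtb46-neg CDPs 6 rose and 3 fell in pre-CD8 DCs (median 0.15). In this order the shares called were 52.9%, 41.2% and 52.9%, beside 14.4%, 6.62% and 15.7% of all genes. The first count of 9 was 5 without Zbtb46-pos replicate 2, and the second of 7 was 4 without pre-CD8 DC replicate 1 or replicate 3. Ccr9, the gut-homing chemokine receptor of mature pDCs, read 6.99, 7.36 and 7.53 in pre-CD8 DCs, against dim values of 5.76, 5.98 and 5.93 in Zbtb46-pos CDPs. It rose by 1.40 (SE 0.14, adjusted p = 0.00045). The chemokine receptor Cxcr3 rose by 2.59 in the same comparison (adjusted p = 1.18e-05), and the inhibitory collagen receptor Lair1 fell by 0.76 (adjusted p = 0.000731). The lectin gene Cd209d was 1.48 higher in Zbtb46-pos than in Zbtb46-neg CDPs (adjusted p = 0.000763), while the inhibitory lectin gene Clec12a was 1.22 lower (adjusted p = 0.000344). Cd209d was dim in Zbtb46-neg CDPs (6.40, 5.99 and 5.85). Bst2, which encodes the antigen of a widely used pDC antibody, was bright in every array (11.01 to 11.62). It was 0.42 lower in Zbtb46-pos than in Zbtb46-neg CDPs (adjusted p = 0.0164), and this missed the threshold without Zbtb46-neg replicate 3 (0.0562) or Zbtb46-pos replicate 2 (0.0528).

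Of 16 measured genes of nucleic acid sensing and type I interferon production (20 listed), 2 rose and 3 fell in Zbtb46-pos against Zbtb46-neg CDPs, 1 rose and 0 fell in pre-CD8 DCs against Zbtb46-pos CDPs, and 4 rose and 2 fell in pre-CD8 DCs against Zbtb46-neg CDPs (medians 0.05, 0.08 and 0.06). Called shares were 31.2%, 6.25% and 37.5%, beside 14.4%, 6.62% and 15.7% of all genes, so the second lies near the share over all genes. The count of 1 in the second comparison was 6 without Zbtb46-pos replicate 1 and 2 without Zbtb46-neg replicate 1, and 0 of the 16 were lower there at an unadjusted limma p under 0.05. The endosomal receptors on this list, Tlr7 and Tlr9, ran in opposite directions in pre-CD8 DCs against Zbtb46-neg CDPs. Tlr7, the RNA sensor, read 4.54, 5.09 and 4.86 in pre-CD8 DCs, against 6.91, 5.92 and 5.94 in Zbtb46-neg CDPs, a fall by 1.42 (SE 0.25, adjusted p = 0.00451), with all but 1 of these arrays dim. Without Zbtb46-neg replicate 1 the difference was -1.10 (adjusted p = 0.00283). Tlr9, the DNA sensor, read 10.17, 10.31 and 10.12 in pre-CD8 DCs, against 9.25, 9.26 and 8.91 in Zbtb46-neg CDPs, a rise of 1.06 (SE 0.29, adjusted p = 0.0353). The Tlr9 call was lost in 6 of the 9 single-array omissions, each time a pre-CD8 DC or Zbtb46-neg array, with adjusted p up to 0.128. The adaptor gene Myd88 rose by 0.80 in pre-CD8 DCs against Zbtb46-pos CDPs (adjusted p = 0.00332). Irf5 and the endolysosomal exonuclease gene Pld4 were higher in Zbtb46-pos than in Zbtb46-neg CDPs, by 1.01 and 0.80 (adjusted p = 0.00584 and 0.000577).

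Of 24 measured transcripts used elsewhere as pDC signature genes (25 listed), 6 rose and 4 fell in Zbtb46-pos against Zbtb46-neg CDPs, 1 rose and 1 fell in pre-CD8 DCs against Zbtb46-pos CDPs, and 6 rose and 5 fell in pre-CD8 DCs against Zbtb46-neg CDPs (medians 0.04, -0.05 and -0.08). Here 41.7%, 8.33% and 45.8% were called, beside 14.4%, 6.62% and 15.7% of all genes, so the second lies near the share over all genes. The count of 2 in the second comparison was 5 without Zbtb46-neg replicate 1, and 1 without Zbtb46-neg replicate 3 or any 1 of the pre-CD8 DC arrays. Those that rose in Zbtb46-pos against Zbtb46-neg CDPs included Cd7, a receptor shared with T and NK cells (2.96, adjusted p = 0.000615), the ribonuclease gene Rnase6 (2.32, 3.12e-05), the kynurenine pathway enzyme gene Kmo (1.51, 9.23e-06) and the pyrimidine catabolism enzyme gene Upb1 (1.31, 0.000782). Dntt fell by 2.49 in the same comparison (adjusted p = 0.0078), and the difference was -1.82 without Zbtb46-neg replicate 1 (0.000836). It was dim in Zbtb46-pos CDPs (5.61, 5.42 and 5.16). Atp1b1, a sodium pump subunit, fell by 1.88 in pre-CD8 DCs against Zbtb46-neg CDPs (adjusted p = 0.000387), and the difference was -1.60 without Zbtb46-neg replicate 1 (0.000198). Its pre-CD8 DC values were dim (5.66, 5.96 and 6.06). All 4 lists were drawn up with earlier results of these data in view, so their counts are a description.

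**Figure D4:**
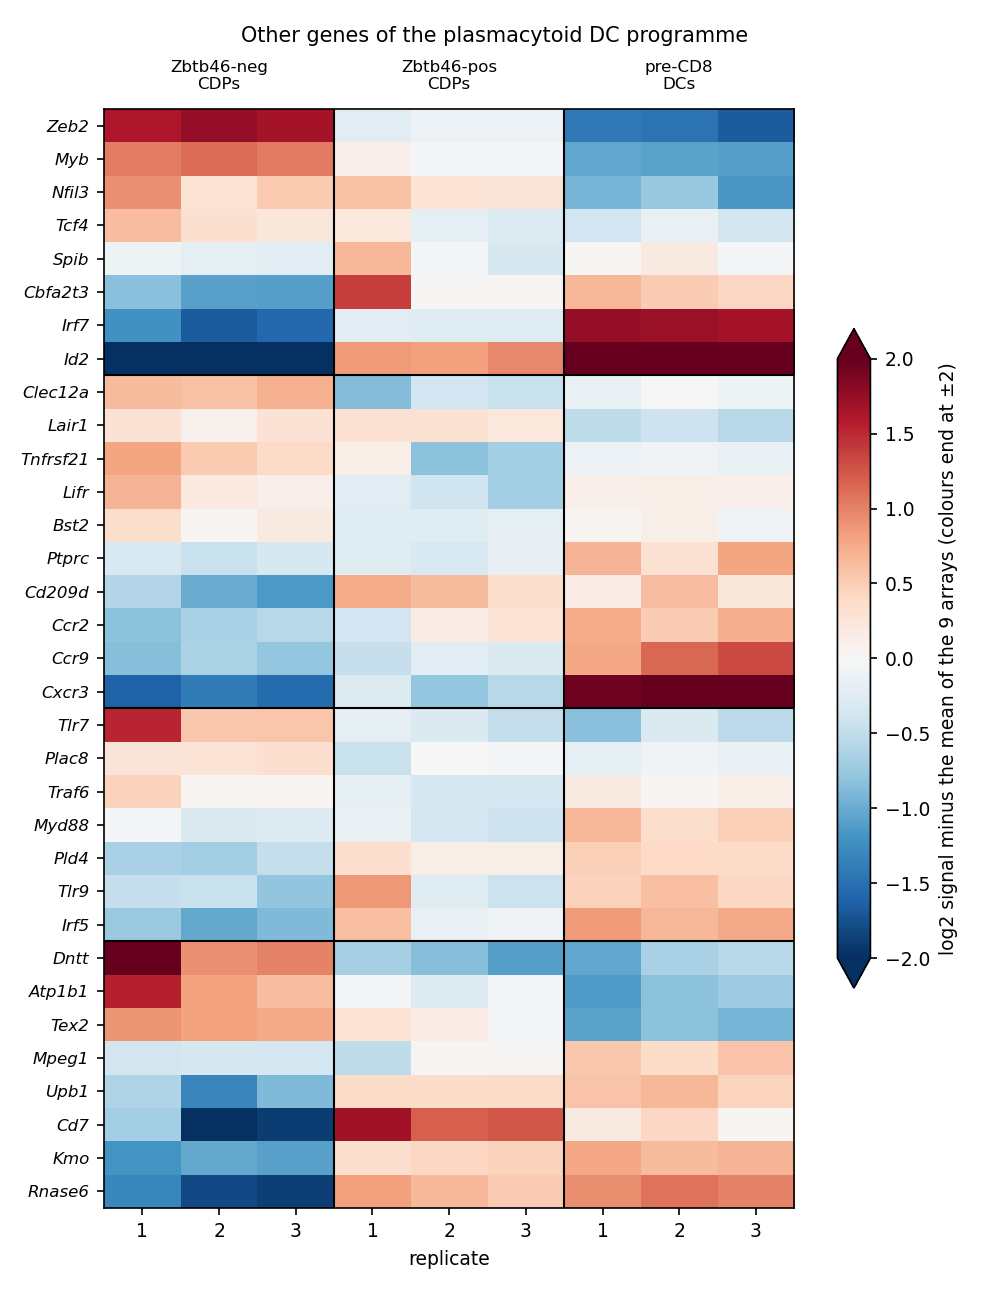
Log2 signal of other genes of the pDC programme in each array, minus the gene's mean over the 9 arrays (colour, ending at ±2). Columns are the replicates of the Zbtb46-neg CDPs, the Zbtb46-pos CDPs and the pre-CD8 DCs, and lines separate regulators, surface receptors, sensing genes and other signature genes. Zeb2 and Myb decline and Id2, Irf7 and Cxcr3 rise across the populations, and Dntt, Atp1b1 and Tlr7 are highest in Zbtb46-neg replicate 1.

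Relatives of the marker genes by family or name were counted too. Of 43 measured paralogs of 49 listed, 5 rose and 3 fell in Zbtb46-pos against Zbtb46-neg CDPs, 5 rose and 1 fell in pre-CD8 DCs against Zbtb46-pos CDPs, and 4 rose and 3 fell in pre-CD8 DCs against Zbtb46-neg CDPs (medians 0.08, -0.08 and -0.0009). The shares called were 18.6%, 14% and 16.3%, beside 14.4%, 6.62% and 15.7% of all genes, so the first and the last lie near the share over all genes. The count of 8 in the first comparison was 5 without Zbtb46-neg replicate 3. Siglecg, an inhibitory sialic acid receptor, was 1.51 higher in pre-CD8 DCs than in Zbtb46-neg CDPs (adjusted p = 2.14e-06). Siglech was lower there. In the CD300 cluster, Cd300c2 was 1.02 higher in pre-CD8 DCs than in Zbtb46-pos CDPs (adjusted p = 0.000905). Cd300lg was 2.25 higher (adjusted p = 2.11e-07) and Cd300lb fell by 2.25 (adjusted p = 9.46e-05) in pre-CD8 DCs against Zbtb46-neg CDPs, where Cd300c was not called. Cd300lb was dim in pre-CD8 DCs (5.94, 6.04 and 5.93). Smim14, a small membrane protein gene related to Smim5 by name only, was 0.82 lower in Zbtb46-pos than in Zbtb46-neg CDPs (adjusted p = 0.000805). Whether the differences of a marker gene and its relative differ from each other was not tested.

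Among the 3685 genes called by the F test and searched, those most like Siglech over the 9 arrays were Fut10, a fucosyltransferase-family gene (Pearson r = 0.981), the carbonic anhydrase gene Car13 (0.977) and the DNA repair gene Xrcc3 (0.967). Without Zbtb46-neg replicate 1 these were 0.973, 0.961 and 0.949. Each of them fell in pre-CD8 DCs against Zbtb46-neg CDPs, with log2 differences of -0.56, -0.69 and -0.54 (adjusted p = 0.01001, 0.00752 and 0.00537). Fut10 was dim on average in every population (6.56 in Zbtb46-neg CDPs, 6.33 in Zbtb46-pos CDPs and 6.01 in pre-CD8 DCs). Car13 was dim on average in pre-CD8 DCs (6.58). Those most like Smim5 were the complement factor gene Cfp (0.970), the formin gene Diaph2 (0.966) and Cd7 (0.964), with values of 0.973, 0.968 and 0.963 without that array. Cfp rose by 0.86 in Zbtb46-pos against Zbtb46-neg CDPs (adjusted p = 0.00044) and fell by 0.42 in pre-CD8 DCs against Zbtb46-pos CDPs (adjusted p = 0.0255). These likenesses follow 3 population means, share arrays and scaling, and are a description. The genes were picked by the F test and by likeness on the same arrays, so their adjusted p-values are no separate test.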

How the data were processed

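Transcripts of 3 sorted bone marrow populations, 3 arrays each, were measured on Affymetrix whole-transcript arrays. Per the submitters' processing notes, the authors summarized the arrays with RMA in Affymetrix Expression Console, and versions and settings are not given in the sources used here. The deposited values are RMA signal intensity per probe set on a linear scale, and log2 was taken with no other scaling. Of 28853 probe sets, the platform annotation named 1 symbol for 21789, several for 1621, and did not list 5443. Genes with several one-symbol probe sets were read from the one with the highest mean, leaving 19938 genes, and dim genes were kept.

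All 9 arrays entered one limma 3.58.1 fit (lmFit, eBayes, R 4.3.3) of group means, with Benjamini-Hochberg adjustment over all genes and a threshold of 0.05. The median residual SD was 0.136 on the log2 scale, and precision is limited by having 3 arrays a group. The fit was also run on simulated data with independent noise in each array, which does not cover the residual correlations given next. Same-numbered arrays of Zbtb46-pos and Zbtb46-neg CDPs had residuals correlated by 0.51, 0.42 and 0.36. Zbtb46-pos replicate 2 and Zbtb46-neg replicate 3 reached 0.38, and the other differently numbered pairs ran from -0.51 to 0.15. These values set replicate 1 apart from replicates 2 and 3 and do not settle whether the numbers pair the samples. For same-numbered pre-CD8 DC arrays the correlations were 0.11, 0.07 and 0.17 with Zbtb46-pos CDPs and -0.01, -0.03 and 0.03 with Zbtb46-neg CDPs.

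The genes, lists and alternatives were chosen with earlier results of these data known. Named genes are the measured pDC genes, Tcf4, Spib, Zeb2, Id2, Tlr7, Tlr9, Bst2 and Ccr9, up to 5 called genes of each list and comparison with the largest difference, and the 3 genes most like each gene the F test called. Genes that describe arrays or check the labels (Xist, Ngp, S100a8, Mpo, Prtn3, Ctsg, Il7r, Rag1, Blnk, Cd79a, Pax5, Zbtb46) were chosen after their values were seen. Alternatives were filters on dim genes, the probe set rule, scaling, moderation, array weights, fits of 2 groups, thresholds, a replicate block, each array left out and the arrays low in Xist left out. Figures were made with Python 3.11.15 and matplotlib 3.10.9.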

Additional observations from a re-analysis of the deposited data

How the results depend on the processing

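Of the called member differences, Smim5 in Zbtb46-pos against Zbtb46-neg CDPs held in all alternatives (1.0005 to 1.19 with an array left out). Siglech in pre-CD8 DCs against Zbtb46-neg CDPs held in all but the 2-fold rule (-0.88 to -0.57). Siglech in pre-CD8 DCs against Zbtb46-pos CDPs gained a call with genes below the table median left out (adjusted p = 0.0440), with quantile normalization (0.0214), array weights (0.0195), the 2 groups alone (0.0370) and the arrays low in Xist left out (0.0116), so that 2 member genes were called in place of 1 under each of these. That count was 0 at an adjusted p under 0.01 and 0 with the 2-fold rule, and the count of 3 in pre-CD8 DCs against Zbtb46-neg CDPs was 1 and 0 under these rules. With an array left out, member counts were 1 to 1, 0 to 2 and 1 to 3 for Zbtb46-pos against Zbtb46-neg CDPs, pre-CD8 DCs against Zbtb46-pos CDPs and pre-CD8 DCs against Zbtb46-neg CDPs. With the replicate block, Smim5 in pre-CD8 DCs against Zbtb46-neg CDPs lost its call (adjusted p = 0.0541), and no other member call changed.

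Counts over all genes moved more. Zbtb46-pos against Zbtb46-neg CDPs gave 2873 called genes, with 6430 under array weights, 1858 with the 2 groups alone, 1405 at 0.01, 466 with the 2-fold rule, 4495 without the arrays low in Xist and 1793 to 5268 with an array left out. For pre-CD8 DCs against Zbtb46-pos CDPs the count was 1319, and 3062, 850, 543, 243, 4066 and 662 to 2672 under the same settings. For pre-CD8 DCs against Zbtb46-neg CDPs it was 3123, with 6955 under array weights, 1877 at 0.01, 842 with the 2-fold rule and 2250 to 4300 with an array left out. The F test called 3816, with 8701, 2094 at 0.01, 6203 without the arrays low in Xist and 2624 to 6273; it was not run for 2 groups or the 2-fold rule. Stricter rules lower these counts by construction, and the cause of the other shifts was not tested.

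Differences that changed sign were all uncalled. Under array weights these were Siglech (0.046), Ly6d (0.035) and Pacsin1 (-0.050) in Zbtb46-pos against Zbtb46-neg CDPs, Pacsin1 (0.070) and Spib (0.15) in pre-CD8 DCs against Zbtb46-pos CDPs, and Cd300c (0.026) and Pacsin1 (0.020) in pre-CD8 DCs against Zbtb46-neg CDPs. Without the arrays low in Xist they were Ly6d (0.049) and Pacsin1 (-0.065), Pacsin1 (0.061) and Spib (0.23), and Cd300c (0.0082), in the same order of comparisons. Under quantile normalization they were Pacsin1 (-0.041), then Cd300c (-0.0012), Pacsin1 (0.035) and Spib (0.027). Median centring turned Pacsin1 in pre-CD8 DCs against Zbtb46-pos CDPs (0.0051) and against Zbtb46-neg CDPs (0.022). With an array left out, Ly6d ran from -0.52 to 0.011 and Pacsin1 from -0.078 to 0.090 in Zbtb46-pos against Zbtb46-neg CDPs, Ly6d from -0.078 to 0.0053, Pacsin1 from -0.11 to 0.061 and Spib from -0.26 to 0.23 in pre-CD8 DCs against Zbtb46-pos CDPs, and Cd300c from -0.21 to 0.0082 and Pacsin1 from -0.055 to 0.023 in pre-CD8 DCs against Zbtb46-neg CDPs. Pacsin1 was left out by the filter at the table median, and its dim signal limits what it can show.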
